A study of Mus musculus with 2 samples.

Results

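The 9 genes described here are *Ihh*, *Pthlh*, *Pth1r*, *Ptch1*, *Smo*, *Gli1*, *Gli2*, *Gli3* and *Hhip*, the core of the hedgehog and PTHrP signaling of the growth plate. They were taken by name from the 24421 genes (rows) of the RNA-Seq count table, and each name was found once. The table held 1 library of primary chondrocytes and 1 library of primary dermal fibroblasts. Collagenase digestion of newborn mouse tissue gave both, the chondrocytes from rib cartilage and the fibroblasts, the control cells, from dorsal skin, and the chondrocytes were used within 2 passages. No genetic change, treatment or strain is given for either library, and the number of mice behind each is not given in the sources used here.

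Indian hedgehog, the product of *Ihh*, is secreted by prehypertrophic chondrocytes, which are leaving proliferation and about to enlarge. It binds the receptor encoded by *Ptch1*, which then releases its hold on the membrane protein Smo, and Smo in turn controls whether the GLI transcription factors act as activators or as repressors. In the growth plate the signal raises the parathyroid hormone-related protein PTHrP, the product of *Pthlh*, near the ends of the bone. PTHrP acts through its receptor, encoded by *Pth1r*, to delay the hypertrophy of chondrocytes, which closes a feedback loop. *Ptch1*, *Gli1* and *Hhip* are themselves classical target genes of the pathway. In skin, hedgehog signals pass between the hair follicle epithelium and the dermis below it.

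The libraries held 18788599 counts (chondrocytes) and 17563724 counts (dermal fibroblasts). A fold is the ratio of scaled counts, chondrocytes over dermal fibroblasts unless the other direction is named, with counts under 3 set to 3. Counts were scaled with TMM factors, which assume that most genes do not differ. Each fold is given with its exact (Clopper-Pearson) 95% interval. With 1 library per cell type, the interval covers the error of counting alone. The reads carried no molecular identifiers and several can come from 1 molecule, so even that error can be larger than the interval shows. There was no replicate library and so no p-value, and the values compare these 2 libraries and not the cell types. In bulk RNA, fewer cells of a type and less RNA per cell cannot be told apart. All 10 chondrocyte marker genes were over 2-fold higher in the chondrocyte library, where *Col2a1* had 1447098 counts against 0. In the other direction, 8 of 9 marker genes of dermal fibroblasts passed 2-fold.

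Of the 9 genes, 8 had at least 10 counts in either library and were counted against all genes that passed this filter. A fold over 2 in chondrocytes was found for 5 of the 8, namely *Ihh*, *Ptch1*, *Smo*, *Gli1* and *Hhip*, where 11.8% of the 14291 genes tested had one. *Ihh* passed the filter only through its chondrocyte counts, and a gene that passes through 1 library alone can be called only toward that library. The same limit holds for the gene lists and marker genes. A fold over 2 in dermal fibroblasts was found for 0 of the 8, where 16.2% of the genes tested had one. For *Ihh*, *Ptch1* and *Hhip*, 3 of the 8, even the lower bound of the interval was over 2-fold, against 7.21% of the genes tested. In the other direction it did so for 0 of the 8, against 10.8% of the genes tested. The median log2 fold of the 8 genes was 1.13, and that of all genes tested was -0.0035.

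The bases before an annotated start of transcription are shown for these 3 genes, the ligand and both membrane proteins that bind it. The stretches are RefSeq sequence of GRCm38.p6, the build of the deposited counts (mm10), on the minus strand and 5′ to 3′. Each stretch overlaps no exon of the GENCODE vM1 annotation, to which it was matched by its sequence, and that of *Ptch1* lies within the gene, in an intron of a longer transcript form. The stretches of *Ihh* and *Ptch1* run up to the start, whereas that of *Hhip* stops short of it, at the outer edge of the annotated gene. The capitals mark GC boxes (GGGCGG or, on the other strand, CCGCCC), the only letters of 5 searched motifs (GLI, RUNX, SOX, GC box and TATA) that these stretches held.

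Ihh, chr1:74951673-74951922: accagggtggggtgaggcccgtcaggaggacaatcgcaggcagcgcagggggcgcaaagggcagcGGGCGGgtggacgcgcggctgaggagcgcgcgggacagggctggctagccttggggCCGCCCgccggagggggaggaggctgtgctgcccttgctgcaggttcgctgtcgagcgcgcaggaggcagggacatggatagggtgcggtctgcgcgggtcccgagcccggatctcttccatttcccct
Ptch1, chr13:63565736-63565985: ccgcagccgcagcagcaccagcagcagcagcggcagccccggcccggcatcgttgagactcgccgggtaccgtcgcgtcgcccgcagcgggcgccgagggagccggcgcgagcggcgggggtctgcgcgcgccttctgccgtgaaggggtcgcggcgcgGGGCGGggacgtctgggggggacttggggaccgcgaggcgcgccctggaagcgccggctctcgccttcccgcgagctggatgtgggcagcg
Hhip, chr8:80058061-80058258: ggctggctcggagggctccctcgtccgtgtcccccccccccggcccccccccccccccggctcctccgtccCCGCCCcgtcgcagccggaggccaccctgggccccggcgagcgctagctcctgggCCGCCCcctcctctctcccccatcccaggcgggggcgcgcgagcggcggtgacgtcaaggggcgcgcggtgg

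The sequence GACCACCCA, the GLI consensus, or its reverse complement TGGGTGGTC was found in 0.253% of the 32851 promoter windows of the reference table, each running from 250 bases before to 50 bases after a start. It was found in none of the windows of the 8 genes of the set that the table holds, *Gli1* not being among them. This says only that these letters were not in these windows. The GC box was present in 35.7% of all windows, and the *Ihh* and *Hhip* stretches above held 2 matches each and that of *Ptch1* held 1. The RUNX sequence ACCACA was present in 16.8% of all windows and, within the set, in that of *Gli3*. The TATA sequence TATAAA (13.6% of all windows) and the SOX sequence AACAAT (10.7%) were in none of the windows of the set.

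**Figure D1:**
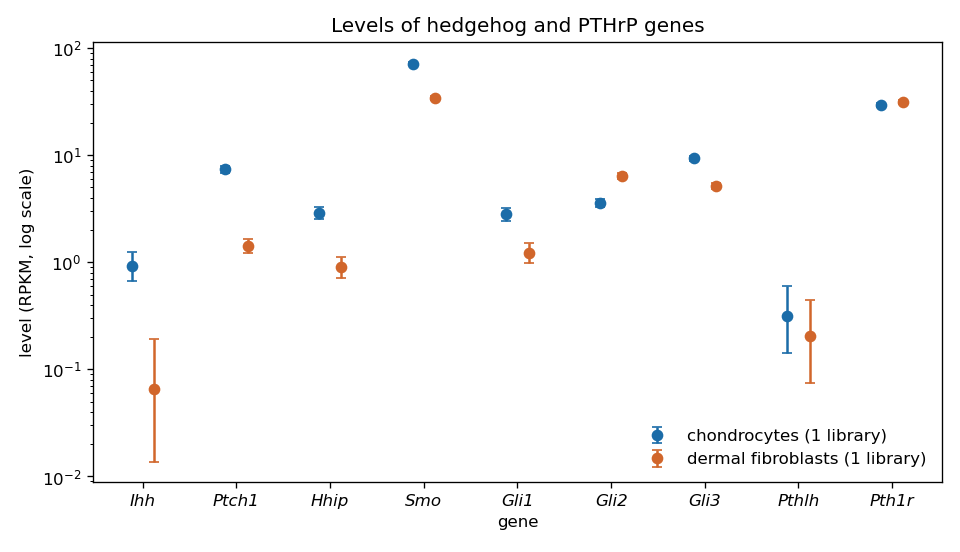
Level of each gene in RPKM (scaled counts per exon length, log axis) in the chondrocyte library (blue) and the dermal fibroblast library (orange), with exact Poisson 95% intervals that cover counting error only. *Smo* and *Pth1r* lie at the top in both libraries, and *Ihh* lies at 0.928 RPKM in chondrocytes and 0.0661 RPKM in dermal fibroblasts.

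*Ihh* (chromosome 1, 74945315 to 74951672 in GRCm38) encodes the hedgehog ligand of the growth plate. It had 41 chondrocyte counts and 3 dermal fibroblast counts, a 14.0-fold difference with an interval from 4.48 to 70.9. The interval was wide because of the 3 counts, and it overlapped that of *Ptch1*. Its level in chondrocytes was 0.928 RPKM (counts per kilobase of exon and scaled library size), at the percentile 19.5 of the tested genes with a known exon length. With counts under 10 set to 10, the fold was 4.21, under the 5.15 of *Ptch1*. Of the other hedgehog ligands, *Shh* had 0 counts in both libraries. The floor of 3 counts stands for 0.167 CPM, the count relative to scaled library size, in chondrocytes and 0.163 CPM in dermal fibroblasts. *Dhh*, named after its values were seen, had 6 chondrocyte counts and 15 dermal fibroblast counts.

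*Ptch1* (chromosome 13, 63508328 to 63573460), the hedgehog receptor that keeps Smo inactive, had 868 chondrocyte counts and 173 dermal fibroblast counts. This was a 5.15-fold difference (interval 4.37 to 6.10), and it lay between 4.69 and 5.61 under the 5 other scalings. *Hhip* (chromosome 8, 79965850 to 80058060) encodes a membrane protein that binds and sequesters hedgehog ligands. It had 253 chondrocyte counts and 81 dermal fibroblast counts, a 3.21-fold difference (interval 2.49 to 4.17). Both genes that encode ligand-binding proteins of the feedback loop were thus higher in the library with more *Ihh* reads. *Ptch1* was at 7.36 RPKM in chondrocytes and 1.43 RPKM in dermal fibroblasts, and *Hhip* was at 2.88 and 0.899 RPKM.

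*Smo* (chromosome 6, 29735497 to 29761366), the membrane protein that passes the signal inward, had the most counts of the set. It had 4849 chondrocyte counts and 2392 dermal fibroblast counts. The fold of 2.08 (interval 1.98 to 2.19) lay at the 2-fold threshold, and with total counts as the scaling it was 1.90. At 71.6 RPKM in chondrocytes *Smo* stood at the percentile 94.9 of the tested genes, and at 34.4 RPKM in dermal fibroblasts it stood at the percentile 88.4. *Smo* was thus among the more abundant transcripts of both libraries.

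The GLI genes encode the zinc finger transcription factors at the end of the pathway, and the 3 genes did not all lie in the same direction. *Gli1* (chromosome 10, 127329882 to 127341579), an activator that is also a target, had 190 chondrocyte counts and 85 dermal fibroblast counts. It was 2.30-fold higher in chondrocytes, with an interval from 1.77 to 3.0. *Gli3* (chromosome 13, 15463723 to 15730026), whose processed form is the main repressor of the pathway, had 1604 chondrocyte counts and 908 dermal fibroblast counts. It was 1.81-fold higher in chondrocytes (interval 1.67 to 1.97). *Gli2* (chromosome 1, 118834061 to 119054405), the main activator upstream of *Gli1*, had 441 chondrocyte counts and 814 dermal fibroblast counts. Its level was thus higher in dermal fibroblasts, by 1.8-fold (interval 1.60 to 2.02), and between 1.65 and 1.97 under the other scalings. Neither *Gli2* nor *Gli3* passed the 2-fold threshold. Per length, *Gli3* was 2.61 times the level of *Gli2* in chondrocytes and 0.799 times the level of *Gli2* in dermal fibroblasts, so the order of these genes differed between the libraries.

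*Pth1r* (chromosome 9, 110722085 to 110747145), the receptor of PTHrP, differed least. It had 1439 chondrocyte counts and 1581 dermal fibroblast counts, which is 29.4 and 31.5 RPKM. The fold was 0.935 (interval 0.870 to 1.0) and was 1.02 when scaled by *Actb*, so no direction can be given. *Pthlh* (chromosome 6, 147252109 to 147264013) had 9 chondrocyte counts and 6 dermal fibroblast counts, and it did not reach the filter. Its fold of 1.54 had an interval from 0.490 to 5.26, so a difference was not detectable at this depth. The receptor was thus abundant in both libraries and the transcript of its ligand was near the limit of detection in both.

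**Figure D2:**
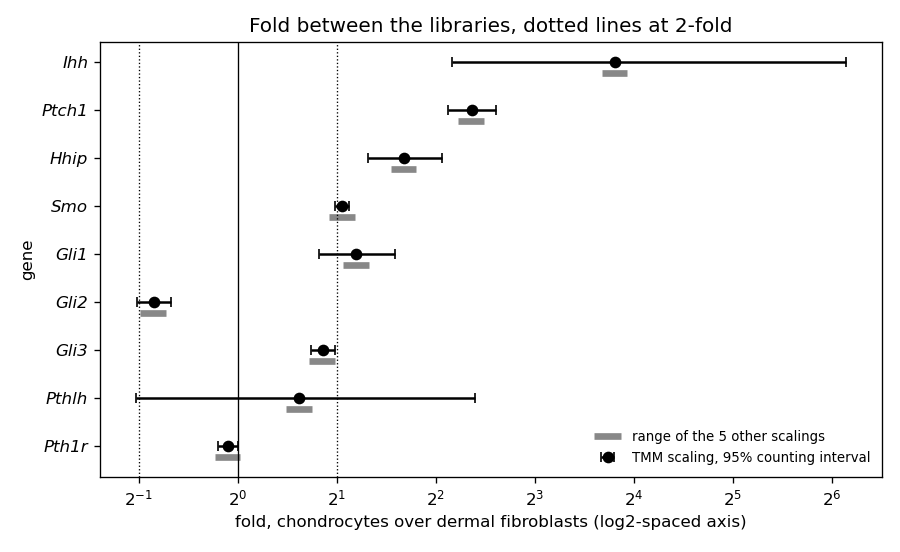
Fold of each gene, chondrocytes over dermal fibroblasts, on a log2-spaced axis, with the 95% counting interval (black) and the range over the 5 other scalings (gray), dotted lines marking 2-fold in each direction. *Ihh*, *Ptch1* and *Hhip* lie wholly to the right of the 2-fold line, *Gli2* lies left of equality and *Pth1r* lies close to it.

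The order of the 9 levels per length was similar at the top and differed below. In chondrocytes the order was *Smo*, *Pth1r*, *Gli3*, *Ptch1*, *Gli2*, *Hhip*, *Gli1*, *Ihh* and *Pthlh*. The counting intervals of *Gli2* and *Hhip*, and those of *Hhip* and *Gli1*, overlapped, and the other neighbors in this order were separated by more than counting error. In dermal fibroblasts the order was *Smo*, *Pth1r*, *Gli2*, *Gli3*, *Ptch1*, *Gli1*, *Hhip*, *Pthlh* and *Ihh*. There the intervals overlapped between *Smo* and *Pth1r*, between *Ptch1* and *Gli1*, between *Gli1* and *Hhip*, and between *Pthlh* and *Ihh*. *Ptch1* took the fourth place in chondrocytes, with the percentile 57.1 of all tested genes, and had the percentile 23.9 in dermal fibroblasts.

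Ratios between genes of the same library need neither a library scaling nor a gene length once they are compared between libraries, and 7 were computed with exact 95% intervals of the odds ratio. The count ratio of *Gli1* to *Gli2* was 0.431 in chondrocytes and 0.104 in dermal fibroblasts, 4.12 times as high in chondrocytes (interval 3.09 to 5.53). The count ratio of *Gli2* to *Gli3* was 0.275 in chondrocytes and 0.896 in dermal fibroblasts, 3.26 times as high in dermal fibroblasts (interval 2.82 to 3.77). Relative to *Gli3*, *Gli1* differed less, at 1.27 times as high in chondrocytes, with an interval from 0.961 to 1.68 that includes equality. The contrast among the GLI genes thus lay between *Gli2* and the other two.

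Relative to *Smo*, both ligand-binding proteins were higher in chondrocytes. The ratio of *Ptch1* to *Smo* was 0.179 in chondrocytes and 0.0723 in dermal fibroblasts, 2.47 times as high in chondrocytes (interval 2.08 to 2.95). For *Hhip* to *Smo* the ratio was 1.54 times as high in chondrocytes (interval 1.19 to 2.01). The ratio of *Ihh* to *Pthlh* was 8.65 times as high in chondrocytes, with an interval from 1.52 to 63.9 that rests on few reads of either gene. The ratio of *Pth1r* to *Pthlh* had an interval from 0.177 to 1.91, and no direction can be given.

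**Figure D3:**
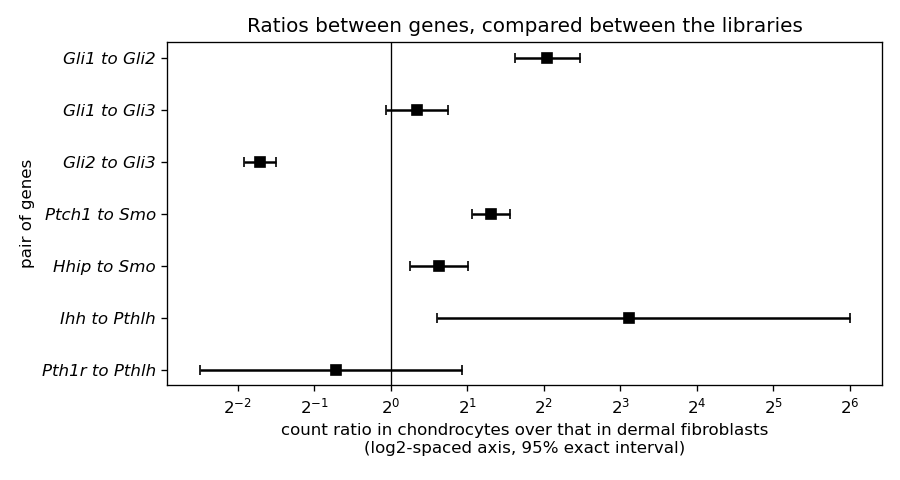
Count ratio of each pair of genes in the chondrocyte library divided by that in the dermal fibroblast library, on a log2-spaced axis with exact 95% intervals for counting error. The ratio of *Gli1* to *Gli2* lies to the right of equality at 4.12 and that of *Gli2* to *Gli3* to the left at 0.307, while the intervals of *Gli1* to *Gli3* and *Pth1r* to *Pthlh* cross it.

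The other genes of the pathways were taken in 7 lists, which hold 87 distinct genes, of which 81 were tested. Of these, 27 were over 2-fold higher in chondrocytes and 7 in dermal fibroblasts, where 11.8% and 16.2% of all genes tested were. Markers of growth plate zones, with 9 of 9 and 8 of 12 tested genes higher in chondrocytes, make up much of the 27. The total thus does not describe the signaling genes alone. The lists share some genes, and each list is described by its own counts, to be read beside these shares of all genes tested.

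Genes that act between *Smo* and the GLI proteins, including those of the primary cilium, lay close together. Of the 20 genes on this list 0 were over 2-fold apart in either direction. Among all genes tested, 11.8% were over 2-fold higher in chondrocytes and 16.2% in dermal fibroblasts. The median log2 fold of the list was -0.11. *Csnk1a1* (casein kinase) had 4805 chondrocyte counts and 3953 dermal fibroblast counts, *Gsk3b* had 1760 and 2619, and *Spop*, which encodes an adaptor for the degradation of GLI proteins, had 1553 and 2148. This list stayed within 2-fold, while 5 of the 8 tested genes above did not. For 3 of these 5 the whole interval was over 2-fold, and *Smo* lay at the threshold.

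The coreceptors and other receptors differed in both directions. Of 6 tested genes, 1 was over 2-fold higher in chondrocytes and 2 in dermal fibroblasts, where 11.8% and 16.2% of all genes tested were. *Gpc3*, a cell surface proteoglycan that competes with Ptch1 for the ligand, had 5417 chondrocyte counts and 2241 dermal fibroblast counts and was 2.48-fold higher in chondrocytes (interval 2.36 to 2.61). *Gas1*, a coreceptor of hedgehog ligands, had 1288 and 4863 counts and a 3.68-fold higher level in dermal fibroblasts (interval 3.46 to 3.91). *Cdon*, another coreceptor, had 3401 and 2803 counts. *Gpc5* had 0 counts in both libraries.

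Among the genes for hedgehog ligands and their release, 3 of 7 tested genes were over 2-fold higher in chondrocytes and 2 in dermal fibroblasts. The latter, named after their values were seen, were *Dhh*, with an interval from 0.892 to 7.66 that includes equality, and *Disp2*, with 4 chondrocyte counts and 14 dermal fibroblast counts, and 0 were left with a floor of 10 counts or with the whole interval over 2-fold. *Scube1* and *Scube3* encode secreted proteins of a family that helps to release hedgehog ligands from the cell. *Scube1* had 698 chondrocyte counts and 36 dermal fibroblast counts, a 19.9-fold difference (interval 14.2 to 28.7). *Scube3* had 390 and 79 counts, a 5.07-fold difference (interval 3.97 to 6.54). *Disp1*, which exports the ligand, had 840 and 485 counts and was 1.78-fold higher in chondrocytes (interval 1.59 to 1.99).

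The reported target genes of the pathway, other than those of the set of 9, were mixed. Of 15 tested genes, 6 were over 2-fold higher in chondrocytes and 3 in dermal fibroblasts, where 11.8% and 16.2% of all genes tested were. The median log2 fold of the list was 0.82. The list does not separate genes that the signal raises from genes that it lowers, so these values do not measure its activity. Among the forkhead factors, *Foxf1* had 244 chondrocyte counts and 15 dermal fibroblast counts (16.7-fold, interval 9.93 to 30.3). *Foxc2* had 154 and 26 counts (6.08-fold, interval 4.0 to 9.61), and *Foxd1* had 146 and 50 (3.0-fold, interval 2.16 to 4.22). *Bcl2*, which opposes cell death, had 254 and 118 counts and was 2.21-fold higher in chondrocytes (interval 1.77 to 2.77). In the other direction, *Osr1*, a zinc finger factor of mesenchyme, had 171 and 598 counts and a 3.40-fold higher level in dermal fibroblasts (interval 2.87 to 4.06). *Gas1* is also on this list. The cyclin *Ccnd2*, the most abundant gene of the list, had 7347 and 6609 counts and a fold of 1.14.

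Genes that act with or below the PTHrP receptor were also close between the libraries. Of 17 tested genes, 16 lay within 2-fold, 0 were over 2-fold higher in chondrocytes and 1 was in dermal fibroblasts, and the median log2 fold was -0.10. *Gnas*, which encodes the G protein subunit that couples the receptor to adenylyl cyclase, had 24165 chondrocyte counts and 25810 dermal fibroblast counts. *Prkar1a*, a regulatory subunit of protein kinase A, had 5478 and 6040 counts, and *Gna11* had 1882 and 1788. *Hdac4*, a histone deacetylase that restrains hypertrophy, had 327 and 709 counts and a 2.11-fold higher level in dermal fibroblasts (interval 1.85 to 2.41), or 1.94-fold when scaled by *Actb*. The hormone genes *Pth* and *Pth2* had 0 counts in both libraries.

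**Figure D4:**
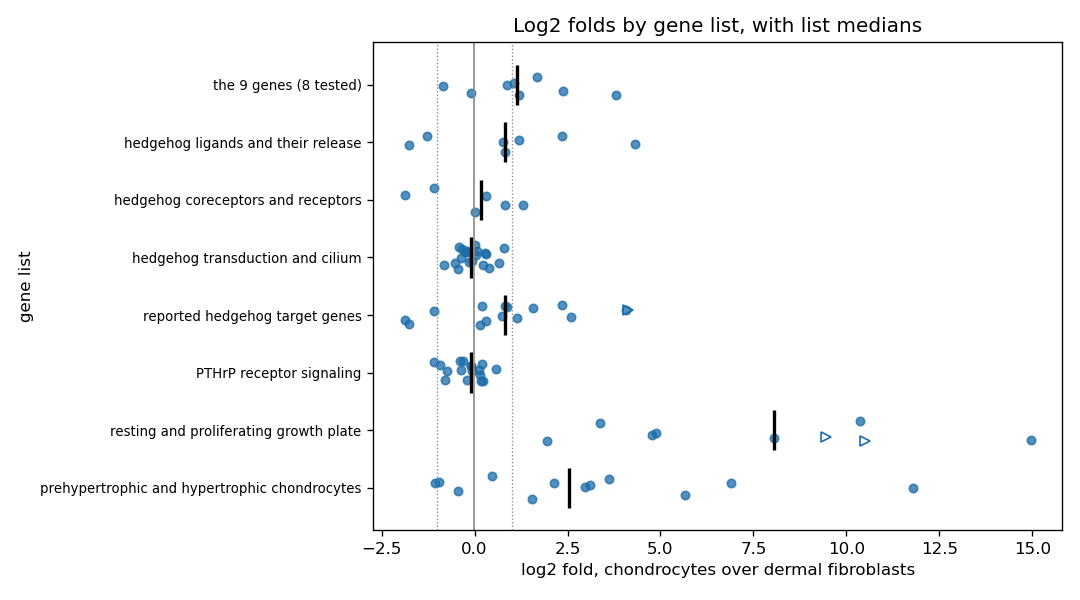
Log2 fold of each tested gene by list, where each circle is a gene. Each open triangle is a gene at 0 counts in dermal fibroblasts, whose value rests on the floor of 3 counts. The black bars are list medians, the gray line is the median of all genes tested and the dotted lines mark 2-fold. The transduction and PTHrP receptor lists gather around equality with medians of -0.11 and -0.10, and the growth plate lists lie to the right with medians of 8.05 and 2.55.

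Zones of the growth plate are told apart by their marker genes, and genes of more than 1 zone had reads in the chondrocyte library. On the list for resting and proliferating cells, all 9 tested genes were over 2-fold higher in chondrocytes. Of these, *Col9a1*, *Matn1* and *Matn3* are also among the chondrocyte marker genes counted above. *Ucma*, *Gdf5*, *Col9a1*, *Matn1* and *Matn3* were among those that passed the filter only through chondrocyte counts and could be called in that direction alone. *Ucma*, a cartilage matrix protein of the resting zone, had 4212 counts against 0. With the 0 set to the floor of 3 counts the difference was 1442-fold, and the lower bound of its interval was 1172. For *Matn1*, with 2052 counts against 0, the difference from this floor was 703-fold, with a lower bound of 571. *Fgfr3*, a receptor that restrains proliferation, had 13972 counts against 54 (266-fold, interval 204 to 354). *Matn3*, a matrix protein, had 10193 against 8 (1309-fold, interval 664 to 3032), and *Col27a1*, a cartilage collagen, had 13478 against 510 (27.1-fold, interval 24.8 to 29.7). *Col9a1*, another cartilage collagen, had 92699 counts against 1, with a counting interval of the ratio from 17088 to 3760630. *Gdf5*, a joint and epiphyseal growth factor, had 114 counts against 4 (29.3-fold, interval 11.1 to 109).

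On the list for prehypertrophic and hypertrophic cells, the stage that makes *Ihh*, 8 of 12 genes were over 2-fold higher in chondrocytes and 1 in dermal fibroblasts. Of the 8, *Col10a1* and *Ibsp* passed the filter only through their chondrocyte counts. *Col10a1*, the collagen of hypertrophic cartilage, had 10378 counts against 3 (3553-fold, interval 1215 to 17232). *Panx3* had 1077 counts against 22 (50.3-fold, interval 33.0 to 80.6), *Sp7* had 156 against 13 (12.3-fold, interval 7.00 to 23.7) and *Mmp13* had 2276 against 296 (7.90-fold, interval 6.99 to 8.94). *Ibsp*, a mineralized matrix protein, had 349 counts against 1, with an interval of the ratio from 63.9 to 14198. *Spp1* had 9639 against 3413 (2.90-fold, interval 2.79 to 3.02), *Alpl* had 734 against 173 (4.36-fold, interval 3.69 to 5.17) and *Slc26a2*, a sulfate transporter, had 2999 against 356 (8.65-fold, interval 7.75 to 9.68). *Vegfa*, with 1869 against 2609, was within 2-fold. *Cyp26b1*, which degrades retinoic acid, had 1203 chondrocyte counts and 2593 dermal fibroblast counts and a 2.10-fold higher level in dermal fibroblasts (interval 1.96 to 2.25), or 1.93-fold when scaled by *Actb*. The 41 *Ihh* reads thus stood beside 10378 *Col10a1* reads in the same library.

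Markers of other cells that receive or send these signals also differed between the libraries. For osteoblasts and perichondrium, which lie next to the growth plate, all 4 tested genes of 6 were over 2-fold higher in chondrocytes. Except *Sp7*, these tested genes passed the filter only through their chondrocyte counts, so they could be called in that direction alone. The summed level of the list was 32.7 CPM in chondrocytes against 0.923 CPM in dermal fibroblasts. Of this list *Bglap* was at 0 in dermal fibroblasts, with 6 counts in chondrocytes, and *Ibsp* and *Sp7* are shared with the hypertrophic list. For keratinocytes and hair follicle epithelium, 6 of 8 tested genes passed 2-fold toward dermal fibroblasts. Of the 6, *Krt5*, *Krt17*, *Epcam* and *Cdh1* passed the filter only through their dermal fibroblast counts. The summed level of this list was 9.48 CPM in chondrocytes and 316 CPM in dermal fibroblasts, and none of its genes was at 0 in either library. For the dermal papilla, the hedgehog-responsive mesenchyme of the hair follicle, 2 of 7 genes were over 2-fold higher in chondrocytes and 3 in dermal fibroblasts, and the summed levels were 57.9 and 67.0 CPM. For skeletal muscle, 3 of 6 genes were over 2-fold higher in chondrocytes, and the summed levels were 1123 and 739 CPM. The part of these cells in the values of the 9 genes was not tested.

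The span of *Gli1* shares 66 bp with that of *Arhgap9*, which had 13 chondrocyte counts and 23 dermal fibroblast counts. Whether the counting used the strand of the reads is not given in the sources used here. Small or noncoding RefSeq genes also lie within or across the spans of *Pth1r*, *Smo*, *Gli2*, *Gli3* and *Hhip*.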

How the data were processed

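Total RNA was made into stranded mRNA libraries and sequenced as single-end reads. The authors called bases with CASAVA 1.8.2, mapped the reads to mm10 with TopHat2 2.0.13, Bowtie2 2.2.3 and SAMtools 0.1.19 and deposited the unscaled counts of reads per gene symbol, which are whole numbers. The counting program, annotation and strand setting are not given in the sources used here.

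The 9 genes, the lists and the tests were chosen with earlier results of these data known. Libraries were scaled by TMM factors of edgeR 4.0.16 in R 4.3.3, 0.954 for chondrocytes and 1.05 for dermal fibroblasts. Folds and intervals came from scipy 1.17.1 and numpy 2.4.6 under Python 3.11.15 and were checked on simulated counts. The simulation drew counting error alone, as the interval assumes, so it checks the code and not the spread between libraries. RPKM used scaled library totals and the exon lengths of GENCODE vM1 (NCBIM37), which named 92.2% of the tested genes. Gene positions and sequences are RefSeq, GRCm38.p6. The motifs searched on both strands were GACCACCCA (GLI), ACCACA (RUNX), AACAAT (SOX), GGGCGG (GC box) and TATAAA, none of which contains another.

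The alternative scalings were total counts, DESeq2 1.42.0 size factors, the upper quartile, *Actb*, and totals without the 10 largest genes of either library. Those were 17 genes, left out of both totals. Other alternatives were a floor of 1 or of 10 counts and 1 count added as a pseudocount. Also tried were a fold over 4, the whole interval over 2-fold, no filter, and for ratios 0.5 added to each count. Besides the 9 genes, those named were drawn from the 3 most abundant of each list and genes over 2-fold with at least 100 counts in either library, unless stated otherwise, and genes at 0 in both. Of the list genes that meet this rule, 1 is not reported here, and not every other one is named.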

Additional observations from a re-analysis of the deposited data

How the results depend on the processing

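No paired analysis was possible because only 1 library stood for each cell type, and no library could be left out. Total counts moved all log2 folds by -0.14 and *Actb* by 0.12 relative to TMM. Of 72 folds of the 9 genes under the alternatives, 65 stayed within the counting interval, 7 left it and 0 called folds changed direction. With total counts *Pth1r* was 0.851, *Smo* 1.90 and *Gli3* 1.65, with *Actb* they were 1.02, 2.27 and 1.98, and with a floor of 10 counts *Ihh* was 4.21. A fold over 4 left 2 of the 5 genes higher in chondrocytes, and the whole interval over 2-fold left 3. Over all genes tested, 1684 were higher in chondrocytes and 2319 were lower. A fold over 4 gave 713 and 929, and the whole interval over 2-fold gave 1031 higher in chondrocytes, stricter thresholds that remove genes by construction. Of the distinct list genes, 7 were higher in dermal fibroblasts, a count that was 4 with *Actb*, 0 with a fold over 4 and 2 with the whole interval over 2-fold. *Smo* and *Myog* were under 2-fold with total counts, and *Hdac4* and *Cyp26b1* with *Actb*. All 7 ratios between genes stayed within their intervals when 0.5 was added to each count. The depth limits *Ihh* and *Pthlh*, with 3 and 6 counts in dermal fibroblasts.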

Other observations

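The promoter windows of the set differed in their number of CpG dinucleotides, the sites of DNA methylation, which was not measured here. The median over 32851 windows was 7. The window of *Ptch1* held 47, more than 98.6% of all windows, and those of *Gli3* and *Pthlh* held 39 and 33. The windows of *Ihh* and *Hhip* held 30 each, that of *Gli2* 28 and that of *Smo* 17. *Pth1r* has 3 annotated windows with 5, 23 and 27. Genes with and without a difference between the libraries were both found among the CpG-rich windows.

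A few target and receptor genes outside the naming rule, chosen after their values were seen, add to the lists. *Nkx3-2*, a repressor of chondrocyte hypertrophy, had 51 chondrocyte counts and 0 dermal fibroblast counts. The difference from the floor of 3 counts was 17.5-fold, and the lower bound of its interval was 13.7. *Mycn* had 25 counts against 5 (5.14-fold, interval 1.93 to 17.2). *Boc*, a hedgehog coreceptor, had 2098 counts against 1218 and was 1.77-fold higher in chondrocytes (interval 1.65 to 1.90), in the other direction from the coreceptor *Gas1*.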
